A study of Saccharomyces cerevisiae with 16 samples.

Results

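The genes described are 10 DEAD-box RNA helicases of ribosome assembly in budding yeast, DBP2, DBP3, DBP6, DBP7, DBP8, DBP9, DBP10, DRS1, HAS1 and MAK5. They were taken by gene name from the 6679 genes of the deposited table, and all 10 were found. Cells of SK1, a laboratory yeast that sporulates readily, were collected 6 h or 3 h after they were moved to sporulation medium. They either had the open reading frame of DBP1, another DEAD-box helicase gene, deleted with Cas9 and no marker (genotype dbp1 delete (Cas9), here dbp1 deletion), or carried it (WT). Both strains were treated with 100 µM cycloheximide before harvest, and ribosome footprints and mRNA fragments were sequenced from each. The 8 groups were dbp1 deletion and WT at 6 h and at 3 h, for footprints and for mRNA, with 2 libraries each. The labels number the replicates 2 and 4 in the deletion and 3 and 4 in WT, and give 1 strain number per genotype. They do not say that replicates came from separate cultures, so p-values rest on the spread of these libraries alone, and that spread could be technical.

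DEAD-box proteins are ATPases that bind RNA and unwind short duplexes or strip proteins from it. In the nucleolus a set of them remodels the ribosomal RNA precursor, each at particular steps, while assembly factors and ribosomal proteins join the growing large and small subunits. In yeast the genes for these factors are transcribed as a regulon that is high in growing cells and low in starved ones, and starvation is what starts sporulation. DBP3, DRS1, MAK5, DBP6, DBP7, DBP9 and DBP10 act on the large subunit, HAS1 on both subunits and DBP8 on the small subunit. DBP2 acts in ribosomal RNA processing and also in mRNA decay and mRNA packaging.

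Levels are in RPKM, reads scaled by gene length and library depth, and can be compared between genes. A library held 4578410 to 6965130 reads assigned to genes for footprints and 5644990 to 9144996 for mRNA, recovered from the smallest steps between values. The members had 21 to 1058 reads per footprint library (median 135.5) and 29 to 2377 per mRNA library (median 169). In dbp1 deletion libraries DBP1 footprints were 0.449 to 1.12 RPKM, against 147 to 429 RPKM in WT libraries. The mRNA library labelled dbp1 deletion 3 h replicate 2 resembled the 6 h libraries. Projected onto the line between the WT profiles, with 3 h at 0 and 6 h at 1, it fell at 0.912, and the other deletion 3 h mRNA library at 0.0608. It is shown apart and enters no test, so that deletion mRNA at 3 h rests on 1 library, assumed in the test to vary like the other groups. Footprints do not share this limit.

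Between 3 h and 6 h the 10 genes took opposite courses. DBP3 and DRS1 rose strongly in footprints and mRNA of both strains, 6 members fell, and DBP2 and MAK5 passed no threshold. Most genes fell too: 63.3% of all genes were called lower and 20.1% higher in WT footprints. In WT mRNA 72.9% were called lower and 16.4% higher. The plot of levels by library shows that DBP3, among the lower members at 3 h, had the highest footprint level of the 10 at 6 h. Changes were tested with limma on log2(RPKM + 1), a scale that understates changes of low genes, and called at an adjusted p under 0.05 over all genes tested.

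**Figure D1:**
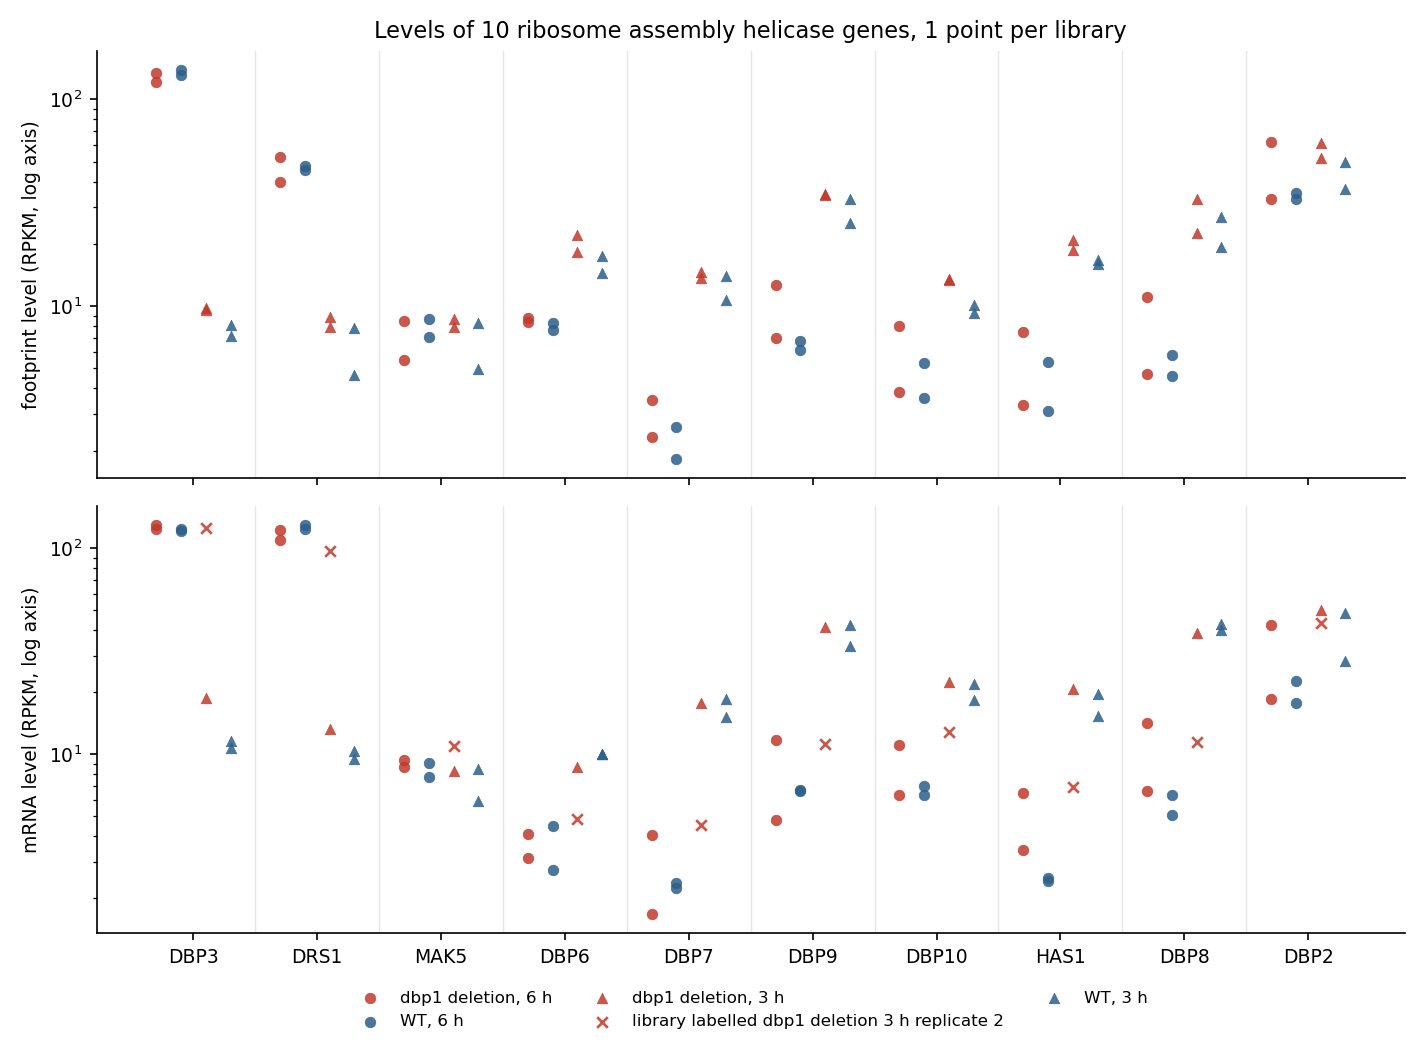
Levels of the 10 genes in every library, footprints above and mRNA below, in RPKM on log axes; circles are 6 h, triangles 3 h, red the dbp1 deletion, blue WT, and crosses the mRNA library labelled dbp1 deletion 3 h replicate 2. Within each kind, DBP3 and DRS1 are higher in every 6 h library than in any 3 h library other than that cross. The cross lies at 125 RPKM for DBP3, among the 6 h mRNA libraries, and at 97.4 RPKM for DRS1, below all of them.

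DBP3 acts in the processing of the large subunit precursor within the first internal spacer and is not essential. Its footprint level at 6 h was 121 and 134 RPKM in deletion cells and 132 and 138 RPKM in WT cells, against 9.59 and 9.77 RPKM in deletion cells and 8.09 and 7.18 RPKM in WT cells at 3 h. The times did not overlap in either strain. In WT the footprint change, 6 h minus 3 h, was 3.98 ± 0.14 on the log2 scale (SE, adjusted p = 1.4e-07, limma), or 15.8-fold, and in deletion cells it was 3.59 ± 0.14 (adjusted p = 2.9e-07).

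DBP3 mRNA moved with its footprints. At 6 h it was 124 and 130 RPKM in deletion cells and 123 and 121 RPKM in WT cells, against 18.8 RPKM in the deletion library used and 10.7 and 11.6 RPKM in WT cells at 3 h. The mRNA change was 2.69 ± 0.14 in deletion cells (SE, adjusted p = 2.7e-05, limma) and 3.34 ± 0.11 in WT (adjusted p = 4.2e-06), or 10.1-fold in WT. DBP3 stood 148th of 5312 genes from the top of the WT footprint changes and 150th of 5720 from the top of the mRNA changes.

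DRS1, an essential helicase of large subunit maturation, was the other member that rose. Its footprint level at 6 h was 40.1 and 52.5 RPKM in deletion cells and 47.5 and 45.4 RPKM in WT cells, against 8.85 and 7.96 RPKM in deletion cells and 7.88 and 4.66 RPKM in WT cells at 3 h. The footprint change was 2.32 ± 0.24 in deletion cells (SE, adjusted p = 4.7e-05, limma) and 2.74 ± 0.24 in WT (adjusted p = 2.1e-05). Its mRNA at 6 h was 109 and 123 RPKM in deletion cells and 129 and 124 RPKM in WT cells, against 13.2 RPKM in the deletion library used and 9.51 and 10.4 RPKM in WT cells at 3 h. The mRNA change was 3.04 ± 0.15 in deletion cells (adjusted p = 2.7e-05) and 3.54 ± 0.12 in WT (adjusted p = 4.4e-06). In WT, DRS1 ranked 274th of 5312 genes by footprint change and 141st of 5720 by mRNA change.

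The count over the list was the same in footprints of both strains, 2 members higher and 6 lower. Of all 5312 genes, 20.1% were called higher and 63.3% lower in WT, and 19.3% higher and 65.1% lower in the deletion, so that the members' split lay close to the background. In mRNA the counts were again 2 higher and 6 lower in each strain, among 5720 genes of which 16.4% were higher and 72.9% lower in WT, and 14.8% higher and 71.9% lower in the deletion. The members' median footprint change in WT was -0.95, against -0.96 over all genes.

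RPKM values are shares of a library, and the typical gene's share was lower at 6 h: the all-gene median change was -0.997 in deletion and -0.96 in WT footprints, and -1.36 in deletion and -1.38 in WT mRNA. With the libraries rescaled by their median ratio, which sets a typical gene's change to about 0, 36% of genes were higher and 32.3% lower in WT footprints. On that scale 3 members were higher in WT footprints, DBP3 (4.88), DRS1 (3.63) and MAK5 (1.09), and 4 were lower, DBP7, DBP8, DBP9 and HAS1. DBP2, DBP6 and DBP10 were not called, so the falls of DBP6 and DBP10 in RPKM were not told apart from that of a typical gene. The same 3 higher and 4 lower members were called in rescaled WT mRNA, where 38.1% of genes were higher and 35.5% lower. In rescaled deletion footprints (34.8% of genes higher, 31.3% lower) DBP3, DRS1 and DBP2 were higher, DBP2 with its direction turned to 0.66, and DBP7, DBP9 and HAS1 were lower. In rescaled deletion mRNA (34.6% higher, 30.4% lower) DBP3, DRS1 and MAK5 were higher and DBP7 and DBP9 lower.

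**Figure D2:**
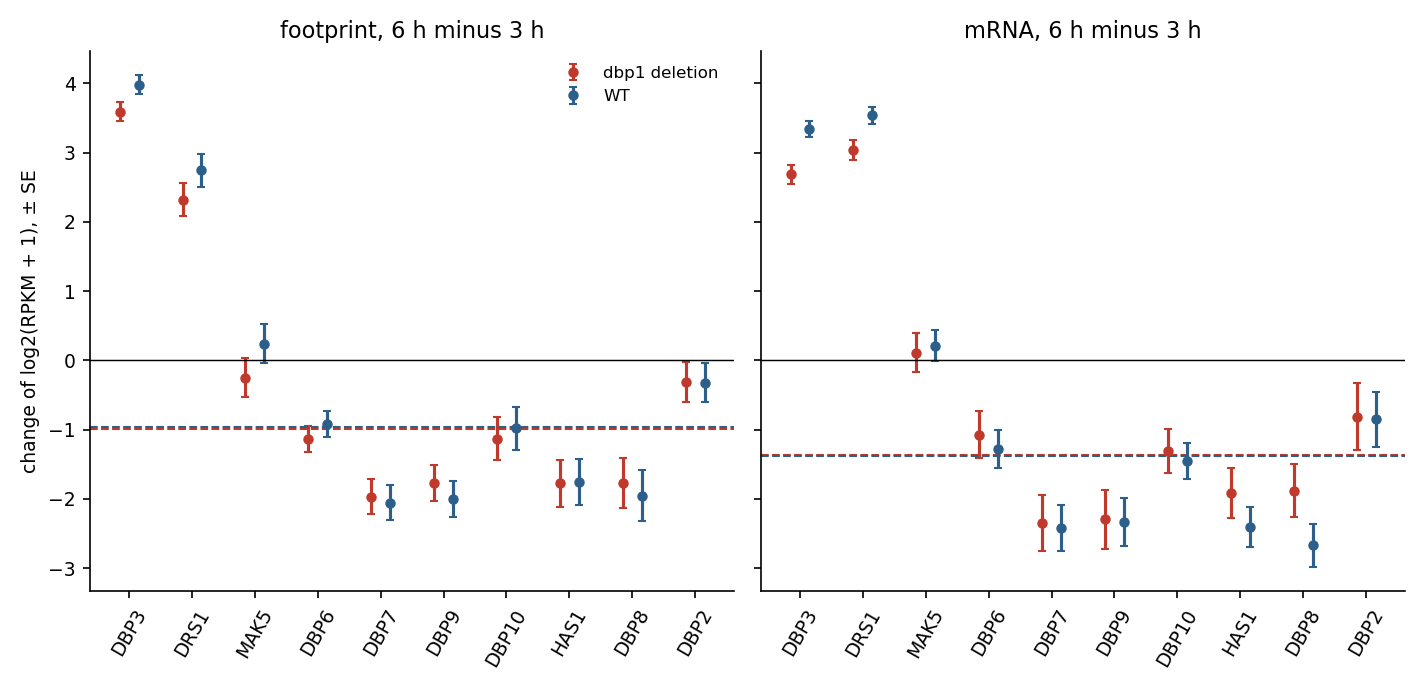
Change of log2(RPKM + 1), 6 h minus 3 h, for each gene in footprints (left) and mRNA (right), with standard errors; red points are the dbp1 deletion, blue points WT, and dashed lines the all-gene medians of each strain. DBP3 and DRS1 lie above 2, MAK5 near 0, DBP6 and DBP10 near the all-gene median, and DBP7, DBP8, DBP9 and HAS1 below it.

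Among the helicases of early large subunit assembly, DBP7 had the largest fall in WT footprints. DBP7 footprints at 6 h were 3.50 and 2.32 RPKM in deletion cells and 1.83 and 2.60 RPKM in WT cells, against 14.7 and 13.6 RPKM in deletion cells and 14.0 and 10.8 RPKM in WT cells at 3 h. The change was -1.97 ± 0.26 in deletion cells (SE, adjusted p = 0.00015, limma) and -2.06 ± 0.26 in WT (adjusted p = 0.00012). DBP7 mRNA changed by -2.35 in deletion cells and -2.42 in WT, and every 6 h library was below every 3 h library used.

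DBP9, a factor of the same early steps, had 12.6 and 7.00 footprint RPKM in deletion cells and 6.13 and 6.78 RPKM in WT cells at 6 h, against 34.6 and 34.8 RPKM in deletion cells and 32.8 and 25.3 RPKM in WT cells at 3 h. It fell by 1.77 in deletion cells (SE 0.26, adjusted p = 0.00030, limma) and by 2.00 in WT (SE 0.26, adjusted p = 0.00015). DBP9 mRNA changed by -2.30 in deletion cells and -2.34 in WT.

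DBP6, which works with DBP7 and DBP9 in early precursors, fell less. Its footprints were 8.78 and 8.35 RPKM in deletion cells and 7.64 and 8.28 RPKM in WT cells at 6 h, against 22.0 and 18.2 RPKM in deletion cells and 17.4 and 14.5 RPKM in WT cells at 3 h. The change was -1.14 ± 0.18 in deletion cells (SE, adjusted p = 0.00050, limma) and -0.92 ± 0.18 in WT (adjusted p = 0.0017), close to the all-gene medians. The WT call was lost without WT replicate 3, with a change of -0.74. DBP6 mRNA changed by -1.07 in deletion cells and -1.28 in WT. Without WT replicate 3 neither was called, the WT change then being -1.01, and without WT replicate 4 the deletion change of -1.07 was not called. DBP6 had among the lowest mRNA levels of the 10: its WT mRNA was 2.76 and 4.49 RPKM at 6 h, against 10.0 and 10.1 RPKM at 3 h.

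DBP10, also a large subunit factor, had 8.02 and 3.85 footprint RPKM in deletion cells and 3.61 and 5.32 RPKM in WT cells at 6 h, against 13.4 and 13.6 RPKM in deletion cells and 10.1 and 9.24 RPKM in WT cells at 3 h. Its change was -1.13 ± 0.31 in deletion cells (SE, adjusted p = 0.0088, limma) and -0.98 ± 0.31 in WT (adjusted p = 0.017), again near the all-gene medians. The WT call was lost without either WT replicate, with changes of -0.69 without replicate 3 and -1.27 without replicate 4. The deletion call was lost without deletion replicate 4, with -0.67.

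MAK5, a large subunit factor first known for the upkeep of killer virus, stayed level in RPKM. Its footprints were 8.44 and 5.49 RPKM in deletion cells and 8.65 and 7.05 RPKM in WT cells at 6 h, against 7.97 and 8.67 RPKM in deletion cells and 8.27 and 4.99 RPKM in WT cells at 3 h, and the times overlapped. The 95% interval of its WT change was -0.41 to 0.90, around 0.24. Its WT mRNA change was 0.21, which is 1.59 above the all-gene median.

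HAS1, which acts on both subunits, and DBP8, of the small subunit, fell in step with DBP7 and DBP9. HAS1 footprints were 7.48 and 3.32 RPKM in deletion cells and 3.12 and 5.36 RPKM in WT cells at 6 h, against 18.6 and 20.8 RPKM in deletion cells and 15.9 and 16.7 RPKM in WT cells at 3 h. DBP8 footprints were 11.0 and 4.72 RPKM in deletion cells and 4.58 and 5.78 RPKM in WT cells at 6 h, against 33.1 and 22.5 RPKM in deletion cells and 27.0 and 19.3 RPKM in WT cells at 3 h. The times did not overlap for either gene. HAS1 changed by -1.78 ± 0.34 in deletion cells (SE, adjusted p = 0.0013, limma) and -1.76 ± 0.34 in WT (adjusted p = 0.0013), and DBP8 by -1.77 ± 0.36 in deletion cells (adjusted p = 0.0019) and -1.95 ± 0.36 in WT (adjusted p = 0.0011). In mRNA, DBP8 had the largest fall of the 10 in WT on this scale, -2.67 ± 0.31 (adjusted p = 0.00011, limma), and HAS1 fell by 2.41 (SE 0.29, adjusted p = 0.00014). The scale understates falls of lower genes. Mean WT mRNA at 6 h was 5.70 RPKM for DBP8, 2.32 for DBP7 and 2.47 for HAS1, against 41.5, 16.9 and 17.6 RPKM at 3 h.

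DBP2 was the most abundant member at 3 h in footprints and was not called in either kind of library. Its footprints were 62.1 and 33.0 RPKM in deletion cells and 33.0 and 35.3 RPKM in WT cells at 6 h, against 61.5 and 51.9 RPKM in deletion cells and 50.0 and 36.8 RPKM in WT cells at 3 h. The WT change was -0.32 with a 95% interval of -0.98 to 0.33. DBP2 mRNA was 42.4 and 18.5 RPKM in deletion cells and 22.8 and 17.7 RPKM in WT cells at 6 h, against 50.2 RPKM in the deletion library used and 28.3 and 48.6 RPKM in WT cells at 3 h. The WT mRNA change was -0.85 (SE 0.40, adjusted p = 0.076, limma). It passed the threshold without WT replicate 3, with -1.41, and without either deletion replicate, with the same -0.85. The deletion mRNA change was -0.81, and without deletion replicate 2 it was called at -1.39. In deletion footprints DBP2 passed it without deletion replicate 2, with -0.64. The length behind the RPKM of DBP2 was 1581 bases, against a RefSeq gene length of 2643 bases, which includes its intron.

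These changes reordered the family. In WT footprints at 6 h, DBP3 at 135 ± 4.9 RPKM (SD, n = 2), DRS1 at 46.4 ± 1.5 RPKM and DBP2 at 34.1 ± 1.7 RPKM stood apart from each other and from the other 7, which lay between 2.21 and 7.96 RPKM. Of those 7, DBP6 and MAK5 overlapped, as did DBP8 with DBP10 and DBP10 with HAS1, and DBP7 was lowest. In WT footprints at 3 h the order began with DBP2 at 43.4 ± 9.4 RPKM, DBP9 at 29.0 ± 5.3 RPKM and DBP8 at 23.1 ± 5.5 RPKM, and ended with DBP3 at 7.63 ± 0.65 RPKM, MAK5 at 6.63 ± 2.3 RPKM and DRS1 at 6.27 ± 2.3 RPKM, whose libraries overlapped.

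DBP3 held 42.7% and 52.7% of the summed footprint RPKM of the 10 genes in deletion cells and 53.1% and 53.2% in WT cells at 6 h, against 4.27% and 4.84% in deletion cells and 4.22% and 4.81% in WT cells at 3 h. The 8 members other than DBP3 and DRS1 together had 122 and 68.0 RPKM in deletion cells and 68.5 and 76.5 RPKM in WT cells at 6 h, against 206 and 184 RPKM in deletion cells and 176 and 137 RPKM in WT cells at 3 h. The sum of all 10 was higher at 6 h than at 3 h in each strain, 283 and 255 RPKM in deletion cells and 248 and 260 RPKM in WT cells at 6 h, against 224 and 202 RPKM in deletion cells and 192 and 149 RPKM in WT cells at 3 h.

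The contrast of DBP3 with its family can be put on the log2 scale as its level minus the mean level of the other 9, a description without a test because DBP3 was singled out with its course known. In footprints it was 3.19 and 3.93 in deletion cells and 3.92 and 3.81 in WT cells at 6 h, against -0.96 and -0.83 in deletion cells and -0.99 and -0.79 in WT cells at 3 h. It thus moved by 4.46 in deletion cells and 4.76 in WT, and in mRNA by 3.63 in deletion cells and 4.42 in WT. In the mRNA library set apart it was 3.12. Against the 8 members without DRS1, a choice made after DRS1 was seen to rise, the footprint values were 4.85 in deletion cells and 5.20 in WT.

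Markers of the stage of meiosis moved with these changes. All 12 genes of a list of middle meiotic genes, which the regulator NDT80 turns on for the divisions and spore formation, rose in WT footprints, with a median of 7.39 against -0.96 over all genes. Their summed footprint level was 46528 to 57672 RPKM at 6 h, against 268 to 431 RPKM at 3 h, and none was at 0. Of 12 early meiotic genes, 11 fell, with a median of -1.77, and their sum was 3882 to 5404 RPKM at 6 h, against 11734 to 13444 RPKM at 3 h. Of 12 markers of haploid or dividing cells only 4 passed the filter on low values, and they went both ways in WT footprints. STE3, a mating receptor, rose by 1.61 (adjusted p = 8.6e-05, limma), MFA2 and SIC1 fell by 2.35 and 1.29, and MFA1 was not called. The summed level of all 12 was 68.3 to 81.4 RPKM at 6 h, against 115 to 155 RPKM at 3 h, with 0 to 3 of the 12 at 0 in a library. The part of a changing mixture of cells in the members' changes was not tested, and in such bulk samples fewer cells of a type and less RNA per cell cannot be told apart.

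The genes whose footprints were most like DBP3 over the 8 footprint libraries, among 5302 genes, were SSP1, GIP1, YSW1, SPS2 and SPS22, with Pearson correlations of 0.9997 to 0.9998. SSP1 and YSW1 act at the growing spore membrane, GIP1 directs a phosphatase to it, and SPS2 and SPS22 serve the spore wall. The libraries fall into 2 clusters by time, so these correlations mostly record the step between the times. The sizes differed: SSP1 changed by 6.19 and SPS2 by 8.66 in WT, against 3.98 for DBP3, and of the 12 genes of the middle meiotic list CLB4, a B-type cyclin, was closest to DBP3, at 3.93. The genes most like the mean of the other 9 members were ECM1, UTP14, UTP4, RRB1 and NOP1, with correlations of 0.988 to 0.994. All 5 have roles in making ribosomes and fell in WT footprints, between ECM1 at -0.80 and NOP1 at -1.98. ECM1 and UTP4, at -0.93, fell by less than the all-gene median.

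The same measure was taken for DRS1 after its rise was seen, and gave UTP18, DXO1, TMA46, YCL021W-A and TMA64, with correlations of 0.9967 to 0.9993. UTP18 is a small subunit assembly factor and rose by 2.19 (SE 0.19, adjusted p = 2.2e-05, limma) in WT footprints. The direct neighbours on the chromosome, per RefSeq, did not share the rises. KXD1 and HNM1 beside DBP3 changed by -1.91 and -2.55 in WT footprints, and COX17 and LMO1 beside DRS1 by -2.002 and -1.55, all called lower and all below the all-gene median. No RefSeq gene overlaps any of the 10.

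**Figure D3:**
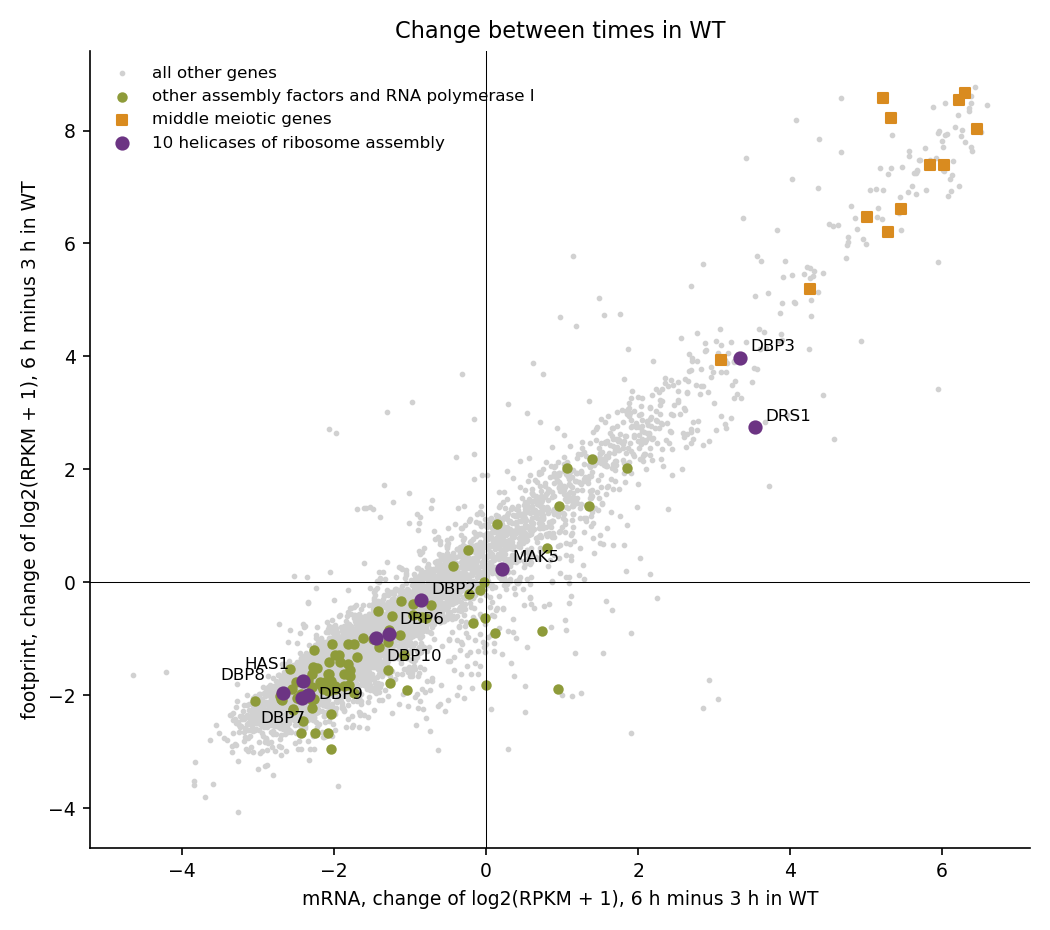
Change of log2(RPKM + 1), 6 h minus 3 h in WT, of footprints (vertical) against mRNA (horizontal) for the 5291 genes tested in both; grey points are other genes, green points other assembly factors and RNA polymerase I, orange squares middle meiotic genes and purple points the 10 helicases. DBP3 lies on the diagonal band beside the lowest middle meiotic gene, DRS1 lies below the band, and 8 members lie with the other assembly factors.

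Most other genes of ribosome assembly fell in RPKM, as did 63.3% of all genes in WT footprints. Of 9 other helicases of ribosome assembly, all 9 fell in WT footprints, with a median of -1.52 against -0.96 over all genes. They ranged from DHR2, a small subunit helicase, at -2.08 to ROK1, also of the small subunit, at -0.86. In mRNA ROK1 rose by 0.73 (SE 0.20, adjusted p = 0.0096, limma), and its footprints per mRNA fell by 1.59 (SE 0.31, adjusted p = 0.0055). Of 11 DEAD-box helicases that work outside ribosome assembly, 9 fell and none rose, with a median of -0.99, close to the all-gene -0.96. DED1, the initiation helicase and paralogue of DBP1, had the largest fall, -2.07, and the splicing helicase PRP5 was not called at -0.13. No helicase of either list was called higher in WT footprints in RPKM, while after rescaling 2 of the 11 were higher and 3 lower.

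Of 11 genes for proteins that work with the 10 helicases, 10 were tested, and the share that fell was near the 63.3% of all genes: 7 fell and none rose in WT footprints, with a median of -1.33, while after rescaling 2 were higher and 4 lower. ESF2, the partner of DBP8, fell by 2.95 (SE 0.32, adjusted p = 5.7e-05, limma), and NOP8, a partner of DBP6, fell by 2.10. ERB1, of the large subunit, was not called at 0.57 (adjusted p = 0.064). Of 34 small subunit factors tested, 26 fell and 3 rose, with a median of -1.35. The risers were UTP18, IMP4 at 1.35 and MPP10 at 1.02, and BFR2 at -2.23 had the largest fall. Of 34 large subunit factors tested, 27 fell and 2 rose, with a median of -1.69. The risers were CIC1 at 2.03 and NOP4 at 2.02, and BRX1 at -2.67 had the largest fall.

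Of 8 subunits of RNA polymerase I, which makes the ribosomal RNA precursor, 7 fell and RPA43 rose by 1.34 (SE 0.18, adjusted p = 0.00018, limma). RPA14 had the largest fall, -2.06. Of 8 regulators of ribosome biogenesis genes, 6 fell, and DOT6, a repressor of these genes, rose by 1.31 (SE 0.17, adjusted p = 0.00017, limma). IFH1 had the largest fall, -2.08. Among these lists of assembly factors, partners, polymerase subunits and regulators, no gene was called with as large a footprint rise as DRS1 or DBP3. MPP10 was named after its value was seen, to account for each riser. After rescaling by the median ratio, the counts in WT footprints were 0 higher and 4 lower of the 9 other assembly helicases, 6 higher and 13 lower of the 34 small subunit factors, 5 higher and 18 lower of the 34 large subunit factors, 1 higher and 2 lower of the 8 polymerase subunits, and 2 higher and 4 lower of the 8 regulators. In that scaling 36% of all genes were higher and 32.3% lower.

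Footprints per mRNA, a proxy for how heavily a message is translated, set DBP3 and DRS1 apart from each other. At 6 h the 2 mRNAs had like levels, 124 and 130 RPKM for DBP3 and 109 and 123 RPKM for DRS1 in deletion cells. DBP3 had 0.977 and 1.04 footprint RPKM per mRNA RPKM in deletion cells and 1.07 and 1.14 in WT cells at 6 h, against 0.520 in the deletion sample used and 0.757 and 0.619 in WT cells at 3 h. DRS1 had 0.367 and 0.427 in deletion cells and 0.367 and 0.368 in WT cells at 6 h, against 0.602 in the deletion sample used and 0.446 and 0.828 in WT cells at 3 h. The all-gene medians were 0.970 to 1.04 at 6 h and 0.718 to 0.767 at 3 h. At 6 h DBP3 was thus near a typical gene and DRS1 was well below it. At 3 h DBP3 was below the median of each sample used, most in the deletion sample, at 0.520 against 0.732.

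The test of efficiency, the footprint change minus the mRNA change in 1 model over 15 libraries, called 1 member, DBP3, in each strain. Its change was 0.90 ± 0.18 in deletion cells (SE, adjusted p = 0.0090, limma) and 0.64 ± 0.16 in WT (adjusted p = 0.014). Of 5291 genes, 30.2% were higher and 2.48% lower in WT and 17.2% higher and 1.8% lower in the deletion, and the all-gene medians were 0.47 in the deletion and 0.50 in WT. After rescaling by the median ratio DBP3 was called in neither strain, at 0.50 in the deletion (adjusted p = 0.28) and 0.22 in WT (adjusted p = 0.58). The WT call was also lost without WT replicate 3, at 0.82, and without WT replicate 4, at 0.46, and the deletion call without either WT replicate, at the same 0.90.

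DRS1 went against the typical gene in efficiency, by -0.72 ± 0.32 in deletion cells (SE, adjusted p = 0.12, limma) and -0.80 ± 0.28 in WT (adjusted p = 0.052), neither of them called. Relative to the all-gene median its WT change was -1.30, and it was the 130th lowest of 5291 genes. After rescaling it was called in WT, at -1.22 (adjusted p = 0.038), where 2.14% of genes were higher and 3.25% lower, and not in the deletion, at -1.11 (adjusted p = 0.10). It was also called in WT without either deletion replicate, at the same -0.80, and with a pseudocount of 5 RPKM in both strains, at -0.80 in the deletion and -0.93 in WT. Over 13 alternatives the WT adjusted p ranged between 0.0098 and 0.72. The other 8 members were not called in efficiency in either strain, with WT changes between 0.03 for MAK5 and 0.72 for DBP8.

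**Figure D4:**
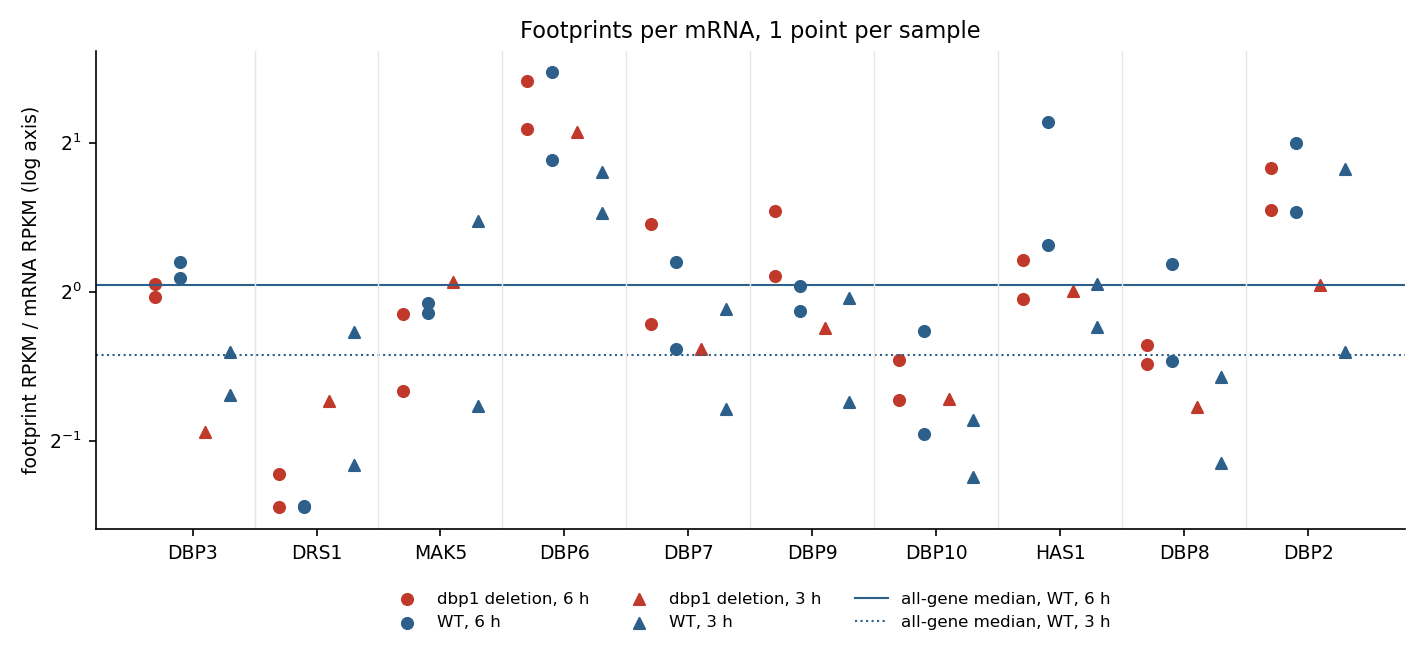
Footprint RPKM divided by mRNA RPKM for each gene, 1 point per sample, on a log axis; circles are 6 h, triangles 3 h, red the dbp1 deletion, blue WT, and lines the all-gene medians of WT at 6 h (solid) and 3 h (dotted). DBP3 lies near the medians at 6 h and near or below them at 3 h. DRS1 at 6 h lies between 0.367 and 0.427, and DBP6 has the highest mean of the 10 in each group.

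DBP6 had the most footprints per mRNA on average, 2.40 ± 0.38 in deletion cells and 2.31 ± 0.65 in WT cells at 6 h (SD, n = 2 each), against 2.10 in the deletion sample used and 1.59 ± 0.21 in WT cells at 3 h. DBP10 was on the low side at both times, with 0.664 ± 0.087 in deletion cells and 0.674 ± 0.23 in WT cells at 6 h, against 0.608 in the deletion sample used and 0.486 ± 0.092 in WT cells at 3 h. The spread between samples was wide for DBP2, with 0.756 and 1.77 in WT cells at 3 h, and for HAS1, with 1.24 and 2.21 in WT cells at 6 h.

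The deletion of DBP1 was not seen to change the helicases of ribosome assembly. No member was called by limma between dbp1 deletion and WT cells at either time, averaged over the times, or in the difference of the time course between strains. The background was as low. In footprints 0.0188% of 5312 genes were higher and 0.0188% lower at 3 h and in the average, and 0.0188% higher and 0.0377% lower at 6 h. In mRNA 0.0175% of 5720 genes were lower at 3 h, at 6 h and in the average, and 0.0175% higher at 6 h. In efficiency 0.0189% of 5291 genes were higher at 3 h and in the average and 0.0189% lower at 6 h and in the average, and for the difference of the time course 0% were called in any measure. At an unadjusted p under 0.05 stood 0 members in the footprint comparisons, 2 in mRNA at 3 h, 1 at 6 h, 1 in the average and 2 in the difference of the time course. In efficiency 1 stood there at 3 h and in the average, DBP3 both times. Of all 5720 genes in mRNA, 269 stood there at 3 h, 127 at 6 h, 186 in the average and 240 in the difference of the time course. In efficiency 67 of 5291 genes stood there at 3 h and 68 in the average, and in footprints 78 to 146 of 5312 over the comparisons. On reads recovered from the RPKM values, limma-voom also called no member. Without deletion replicate 4, DBP8 mRNA at 6 h was called, at 1.18, against 0.69 with it. That fit leaves deletion replicate 2 alone. In 6 h mRNA, 7 members including DBP8 were higher in replicate 2 than in replicate 4, by a median of 0.92. The share of all genes called in that fit is not given here.

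**Figure D5:**
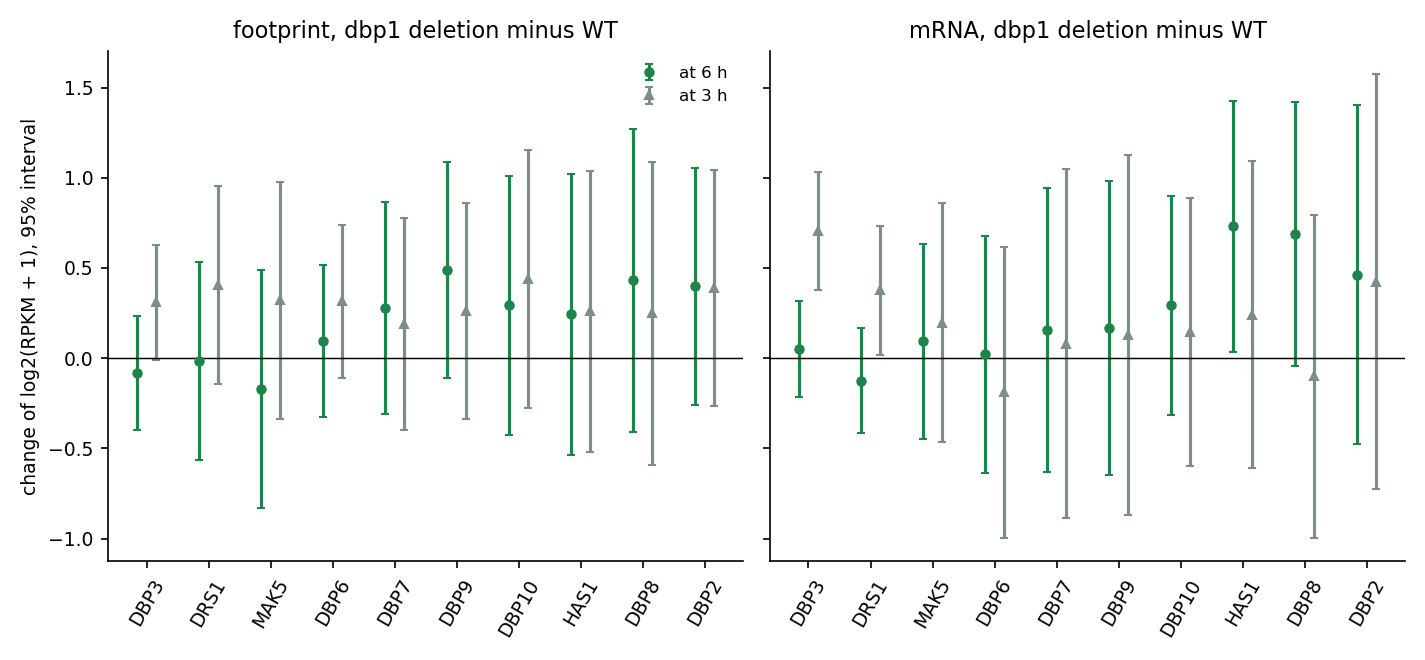
Difference of log2(RPKM + 1) between dbp1 deletion and WT cells for each gene, with 95% intervals, in footprints (left) and mRNA (right); green circles are 6 h and grey triangles 3 h. Nearly all intervals span 0; DBP3 mRNA at 3 h lies at 0.70, HAS1 mRNA at 6 h at 0.73 and DRS1 mRNA at 3 h at 0.38.

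The estimates leaned one way within their error. Averaged over the times, all 10 footprint differences were above 0, between 0.08 and 0.39, with 95% intervals that reached -0.39 and 0.93 at their widest. The all-gene median was 0.00165. Related lists leaned the same way, with differences above 0 for 9 of 9 other assembly helicases, 10 of 10 partners tested, 33 of 34 small subunit factors and 28 of 34 large subunit factors. The lean was not confined to ribosome assembly. Above 0 were also 11 of 12 early meiotic genes, 9 of 12 middle meiotic genes and 8 of 11 DEAD-box helicases outside ribosome assembly. Of the haploid and dividing cell markers tested, 1 of 4 was above 0. These lists were read from the same libraries and are not separate evidence. Within groups the members' median difference between the 2 footprint libraries was 0.65 in the deletion and -0.11 in WT at 6 h. At 3 h it was 0.05 in the deletion and 0.36 in WT. At 3 h alone the differences were between 0.19 for DBP7 and 0.44 for DBP10. At 6 h they were between -0.17 for MAK5 and 0.49 for DBP9. The intervals leave room for moderate differences in either direction, up to 1.27 for DBP8 at 6 h.

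The largest difference relative to its error was that of DBP3 mRNA at 3 h, 18.8 RPKM in the deletion library used and 10.7 and 11.6 RPKM in WT libraries. It was 0.70 ± 0.14 on the log2 scale (SE, adjusted p = 0.79, limma) and rests on 1 deletion library. DRS1 mRNA differed there by 0.38 ± 0.15 (adjusted p = 0.98, limma). In the same libraries the summed mRNA of the middle meiotic genes was 3713 RPKM in the deletion and 2157 and 861 RPKM in WT, and its part in these differences was not tested. In 3 h footprints DBP3 differed by 0.31 ± 0.14 (adjusted p = 1, limma), where the middle meiotic sums were 431 and 366 RPKM in the deletion and 275 and 268 RPKM in WT. The time course of DBP3 mRNA differed between the strains by -0.65 ± 0.18 (adjusted p = 0.997, limma).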

How the data were processed

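The 16 libraries comprise ribosome footprints and mRNA fragments. The authors deposited 1 table of RPKM values with a column per library, and gene names and IDs came from it. Per the labels' protocols, size selection took 28 to 31 nt for footprints and 50 nt for mRNA. Bowtie2, CASAVA and bcl2fastq 2.17 appear in the submitters' processing notes, whose text on their use was not seen. How reads were counted, on which strand, build and annotation is not stated in those sources, so no coordinates are printed, and reads of an antisense or near-identical gene could be shared. RefSeq (assembly R64) gave neighbours and lengths, and 5994 of 6679 IDs matched. Whole reads were recovered from the RPKM steps for 6679 genes, within 0.02 of a read (more above 5000 reads). No molecular identifiers are stated, so reads may include PCR copies.

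Tests used log2(RPKM + 1) and limma 3.58.1 (R 4.3.3), separately for footprints and mRNA, on genes averaging 5 RPKM or more (group means, eBayes with a trend, two-sided, Benjamini-Hochberg, threshold 0.05). All 10 members passed the filter. Efficiency was tested in 1 model of both kinds. The script was tested on simulated data. Alternatives were pseudocounts of 5 and 0.5 RPKM, no filter, rescaling by the median ratio, no trend, limma-voom on recovered reads, a replicate block, efficiency per sample number, leaving out each replicate, and keeping the library set apart.

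The 10 members and the 10 other gene lists were chosen with earlier results of these data known. The text names all members, the 5 genes most like DBP3 or the mean of the other 9, the neighbours of DBP3, and DBP1. Genes of a list were drawn from its 2 largest rises and 2 largest falls relative to the all-gene median. Not all genes so drawn are named. Likeness and neighbours of DRS1 were added after the data were seen. Python 3.11.15 and matplotlib 3.10.9 made the figures.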

Additional observations from a re-analysis of the deposited data

Results flagged for a closer look

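A signal appeared in the mRNA library that the comparisons leave out, labelled dbp1 deletion 3 h replicate 2. DBP3 was at 125 RPKM there, against 10.7 and 11.6 RPKM in the WT 3 h libraries. DRS1 was at 97.4 RPKM, against 9.51 and 10.4 RPKM. The 6 members that fell elsewhere were below every 3 h mRNA library used, for example DBP7 at 4.55 RPKM and DBP9 at 11.2 RPKM. The footprint library with the same label had DBP3 at 9.59 RPKM and DRS1 at 8.85 RPKM. On the line between the WT profiles, with 3 h at 0 and 6 h at 1, the mRNA library fell at 0.912. The deletion 6 h replicate 2 mRNA library fell at 0.925, with DBP3 at 124 RPKM and DRS1 at 109 RPKM. The reason for this 6 h profile was not tested.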

How the results depend on the processing

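Of the members' single values under the alternatives, 1868 kept their direction and their side of the threshold, 160 moved without a call, 33 lost a call, 17 gained 1 and 2 reversed. The calls of DBP3 and DRS1 in footprints and mRNA held under every alternative but 1: with the set-apart mRNA library kept, their deletion mRNA changes were 1.35 and 1.64 (adjusted p = 0.29, limma). With it kept, 0 members and 0 of all genes were called in deletion mRNA. In efficiency 0 members were then called in either strain, against 41 of all 5290 genes in WT and 51 in the deletion. Rescaling by the median ratio reversed DBP2 in deletion footprints (0.66) and DBP6 in deletion mRNA (0.093), left 5 members called in deletion mRNA, and left 0 called in deletion efficiency.

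In efficiency, with a pseudocount of 5 RPKM 2 members were called in each strain, and per sample number 2 were called in WT, each time 1 higher and 1 lower. The share of all genes called under these settings is not given here. In the main fit it was 30.2% higher and 2.48% lower in WT, and 17.2% higher and 1.8% lower in the deletion. Without single replicates the calls in efficiency changed in both strains. Those fits leave 1 library in some groups, so their counts of members are not compared with the background. Over all genes WT efficiency was called higher for 1598 genes and lower for 131, against 285 in all after rescaling, 18 without WT replicate 3, 57 without WT replicate 4, 2892 without deletion replicate 2 and 2898 without deletion replicate 4. Without deletion replicate 4, which leaves 1 deletion library at 6 h, DBP8 was called between deletion and WT mRNA at that time. The share of all genes called there is not given here.

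DBP3 minus the mean of the other 9 changed, with a pseudocount of 5 RPKM, by 3.79 in deletion and 4.00 in WT footprints and by 3.13 in deletion and 3.70 in WT mRNA. Against the 8 members without DRS1 it was 4.85 in deletion and 5.20 in WT footprints, and 4.13 in deletion and 4.99 in WT mRNA. With the set-apart library kept it was 2.01 in deletion mRNA. Without single replicates it was 4.15 to 4.76 in deletion footprints and, without replicate 2, 3.99 in deletion mRNA. Without deletion replicate 4 no mRNA or efficiency contrast with deletion cells at 3 h could be fitted.

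Replicate numbers were not taken to pair the libraries, since not every pair deviated together: the correlation of deviations was 0.24 for deletion footprints at 6 h and 3 h, -0.11 to -0.03 for the other footprint pairs and 0.04 to 0.05 in mRNA. With the replicate number as a block, the footprint counts stayed at 2 higher and 6 lower in each strain, DBP2 was also called in mRNA, at -1.39 in the deletion and -0.85 in WT, and 1 member was called in efficiency in each strain. The share of all genes called with the block is not given here. In the main fit 20.1% of genes were higher and 63.3% lower in WT footprints, near the members' split. In deletion footprints 19.3% were higher and 65.1% lower. Counts of 21 to 1058 reads per member limit the precision of the low members.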

Other observations

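The deletion libraries of 6 h differed from each other, with 8 of the 10 members higher in replicate 2 in footprints and in mRNA. They were MAK5, at 0.54 in footprints and 0.10 in mRNA on the log2 scale, and 7 others. The 7 are the 6 called lower at 6 h and DBP2, which was not called. All 7 of DBP2, DBP6, DBP7, DBP8, DBP9, DBP10 and HAS1 were higher in replicate 2 than in replicate 4, in footprints by a median of 0.89 on the log2 scale (0.06 to 1.07) and in mRNA by a median of 0.92 (0.31 to 1.15). Over all genes the median difference was 0.05 in footprints and 0.10 in mRNA. DBP3 differed by -0.15 and DRS1 by -0.38 in footprints. In WT cells at 6 h the same 7 differed by a median of -0.28 in footprints and 0.05 in mRNA between replicates 3 and 4. In WT cells at 3 h they differed by a median of 0.35 in footprints and -0.27 in mRNA. Between deletion replicates 2 and 4 at 3 h the footprint median was 0.10.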
